A study of Homo sapiens with 6 samples.

Results

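The genes described here are 34 genes of glycolysis, the pentose phosphate pathway and the steps that join them, taken by gene symbol from a count table of 53712 gene names. They comprise 16 enzymes of the glycolytic chain, both common lactate dehydrogenase subunits, 4 glucose and monocarboxylate carriers, 4 genes of the pyruvate dehydrogenase step, 3 enzymes that set fructose-2,6-bisphosphate, 3 pentose phosphate enzymes and 2 side-branch enzymes. The RNA came from H9, an established line of human embryonic stem cells, kept in RSeT, a medium for naive-type pluripotent cells. In both groups, 10 nM DZNep, which blocks S-adenosylhomocysteine hydrolase, was added from 24 h after passage, as was 5 nM TSA (trichostatin A), which blocks histone deacetylases. One group of 3 libraries also received 2.5 µM UNC1999, which inhibits the histone H3 lysine 27 methyltransferases EZH2 and EZH1. The other group of 3 received 2.5 µM UNC2400, the N-methylated analog of low activity that serves as its control compound. Exposure lasted 48 h. Every fold change below is therefore UNC1999 against UNC2400 in cells of 1 line that also carried DZNep and TSA, and cells free of both compounds are not analysed here.

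Glycolysis splits glucose into pyruvate in the cytosol with a net gain of ATP, and the pentose phosphate pathway branches off at glucose-6-phosphate to make NADPH and ribose. Several steps can be catalysed by more than 1 isozyme, and these differ in regulation and tissue. Human pluripotent stem cells are known for a high glycolytic rate. The transcription factors MYC, which binds the E-box CACGTG, and HIF-1, which binds sites with the core ACGTG or GCGTG, are known activators of many glycolytic genes.

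The promoters of 31 of the 34 genes were found in RefSeq (GRCh38.p14), as 60 windows of 250 bases before an annotated start. CACGTG is its own reverse complement and contains ACGTG on each strand; ACGTG and GCGTG were searched on both strands. CACGTG occurred in 7 of the 60 windows (11.7%), against 6.34% of 35116 windows over all genes. ACGTG or GCGTG occurred in 55.0% of the 60 windows, against 43.2% of all windows. By gene, CACGTG lay before 5 of the 7 genes that passed the threshold in neither direction. It lay before 2 of the 20 lower genes with a window and 0 of the 4 higher genes with one. Over all genes with a window, 2110 of 27305 had the word. The 7, 20 and 4 genes had 14, 40 and 6 windows, and the 27305 genes had 35116. The stretches below show 3 genes that were not called and have the word (HK2, LDHA, PDHB), GAPDH and PGK1 as lower genes with CACGTG or with the shorter words only, TKT as a lower gene with none of them, and TPI1 as a higher gene. They were chosen after the values were seen, run 5′ to 3′ on the gene's strand, and leave out bases that GENCODE release 29 places in an exon. Capitals mark the words searched, on either strand.
HK2 (chr2:74834920-74835169, plus strand): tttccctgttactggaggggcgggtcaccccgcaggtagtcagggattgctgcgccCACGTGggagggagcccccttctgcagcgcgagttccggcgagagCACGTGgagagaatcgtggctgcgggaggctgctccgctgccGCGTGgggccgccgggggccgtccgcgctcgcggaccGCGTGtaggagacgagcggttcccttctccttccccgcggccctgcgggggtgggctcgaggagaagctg
LDHA (chr11:18394313-18394387, plus strand): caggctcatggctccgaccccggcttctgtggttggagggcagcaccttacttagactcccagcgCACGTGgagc
PDHB (chr3:58433858-58434082, minus strand): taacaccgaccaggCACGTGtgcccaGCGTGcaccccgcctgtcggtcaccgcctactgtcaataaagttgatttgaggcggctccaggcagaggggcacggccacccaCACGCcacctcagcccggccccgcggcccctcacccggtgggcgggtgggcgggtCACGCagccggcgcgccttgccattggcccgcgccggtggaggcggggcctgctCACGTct
GAPDH (chr12:6535142-6535263, plus strand): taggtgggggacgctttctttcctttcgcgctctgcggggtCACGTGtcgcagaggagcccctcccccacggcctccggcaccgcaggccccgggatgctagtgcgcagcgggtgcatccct
PGK1 (chrX:78103998-78104173, plus strand): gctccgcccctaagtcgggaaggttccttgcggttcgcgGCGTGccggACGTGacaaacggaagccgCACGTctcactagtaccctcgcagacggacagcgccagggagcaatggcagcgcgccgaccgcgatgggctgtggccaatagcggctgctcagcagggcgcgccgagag
TKT (chr3:53256053-53256272, minus strand): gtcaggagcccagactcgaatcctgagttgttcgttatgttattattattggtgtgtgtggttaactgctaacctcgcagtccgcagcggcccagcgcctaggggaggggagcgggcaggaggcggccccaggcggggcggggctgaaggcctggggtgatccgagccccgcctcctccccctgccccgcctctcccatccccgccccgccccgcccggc
TPI1 (chr12:6867855-6868099, plus strand): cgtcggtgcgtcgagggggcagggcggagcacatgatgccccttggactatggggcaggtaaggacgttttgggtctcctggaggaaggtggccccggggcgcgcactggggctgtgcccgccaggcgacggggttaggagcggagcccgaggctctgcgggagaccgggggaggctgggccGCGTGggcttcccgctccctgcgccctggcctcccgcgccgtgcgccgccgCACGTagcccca
The HK2 stretch holds CACGTG at 2 places and the LDHA, PDHB and GAPDH stretches at 1 place each. HK2, LDHA and TPI1 have further windows, and the counts do not tell which start of a gene was used. The other HK2 and LDHA windows held no CACGTG but did hold shorter words, and the other TPI1 window held none of the words. In the GAPDH window the exon bases left out lie upstream of the stretch shown, so that stretch lies downstream of an annotated exon. A match is a match of letters, and binding of these factors was not measured here.

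In UNC1999, 21 of the 34 genes fell and 6 rose, and 7 did not pass an adjusted p of 0.05 (edgeR's quasi-likelihood test, Benjamini-Hochberg over 17596 genes tested). Over all genes tested, 25.9% fell and 26.8% rose. The shares among the 34 were 61.8% and 17.6%. All 34 had a mean of at least 10 CPM (counts scaled to a common library size, with TMM factors), and of the 9817 genes at that level 33.9% fell and 31.1% rose. Their median log2 fold change was -0.22, against 0.02 over all genes tested and -0.01 over the genes of at least 10 CPM. The 6 genes that rose had all UNC1999 libraries above all UNC2400 libraries, the 21 that fell had them below, and the other 7 overlapped; over all genes tested the corresponding shares were 30.9% above and 29.7% below. Together the 34 genes took 1.43%, 1.46% and 1.45% of all counts in UNC2400 replicates 1 to 3 and 1.36%, 1.23% and 1.31% in UNC1999 replicates 1 to 3, so every UNC1999 library lay below every UNC2400 library. In bulk RNA, fewer cells of a type and less RNA per cell cannot be told apart.

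**Figure D1:**
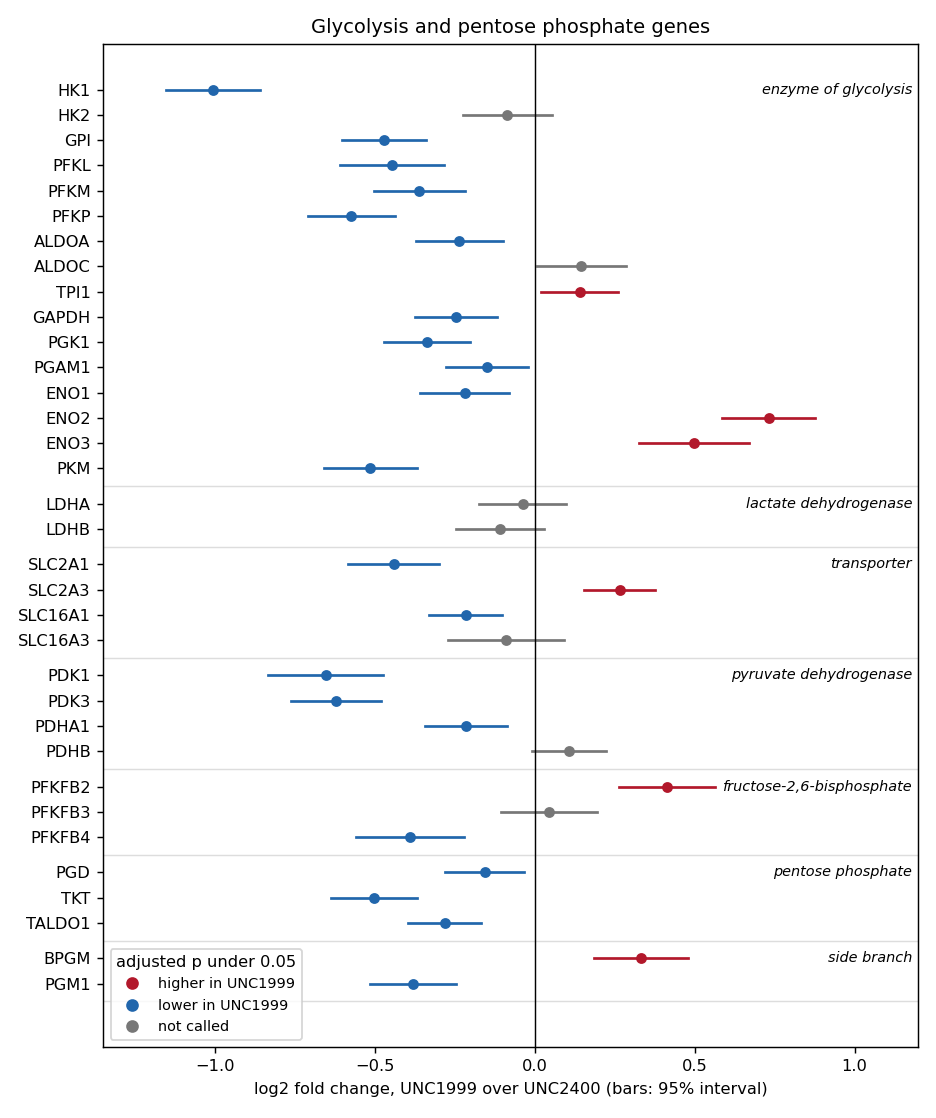
Log2 fold change of each of the 34 genes (points, UNC1999 over UNC2400) with its 95% interval (bars), grouped by role, from 3 libraries per group; red is higher, blue lower and grey not called at an adjusted p of 0.05. HK1 lies furthest to the left at -1.01 and ENO2 furthest to the right at 0.73.

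The libraries held 29699441 to 42345448 counts, so that a count of 0 allows up to 0.0708 to 0.101 CPM, which covers counting error only. All 14 pluripotency markers listed (POU5F1, SOX2, NANOG and others) were at 1 CPM or more in UNC2400. In UNC1999, 9 of them were lower and 1 higher (64.3% and 7.14%, against 25.9% and 26.8% of all genes tested). Their summed level was 11929 to 12194 CPM in UNC2400 and 8903 to 10214 CPM in UNC1999. DNMT3B, at a mean of 2498 CPM in UNC2400 and 1202 CPM in UNC1999, made the largest part of that fall. On the log2 scale CDH1 (-0.65), POU5F1 (-0.44) and LIN28B (-0.41) also fell, and EPCAM (0.39) was the 1 that rose. NANOG fell by 0.14. SOX2, TDGF1, SALL4 and LIN28A were not called, LIN28A by a narrow margin (adjusted p = 0.05003, edgeR). Of 20 markers of other cells, 13 were below 1 CPM in both groups. Of the 11 tested, 3 were lower and 3 higher in UNC1999 (27.3% each, against 25.9% and 26.8% of all genes tested). The 20 summed to 281 to 310 CPM in UNC2400 and 194 to 214 CPM in UNC1999. Most of each sum came from COL1A1, COL1A2 and THY1, the 3 that were lower. The 3 that were higher were GATA4 and PDGFRB, both below 1 CPM in both groups, and MIXL1, at 6.45 CPM in UNC2400 and 8.03 CPM in UNC1999, and no listed marker was at 0 in every library. Their part in the fold changes of the 34 genes was not tested. UNC1999 replicate 1 stood nearer to UNC2400 than replicates 2 and 3 did: its score on the leading principal component (67.8% of variance) was 20.1, against 39.3 and 41.4, with UNC2400 at -35.2 to -31.6. It was also the UNC1999 library nearest to the UNC2400 mean for 26 of the 27 called genes. Without it, 23 of the 34 genes were lower and 5 higher, and over all genes tested in that fit 28.6% were lower and 27.4% higher.

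**Figure D2:**
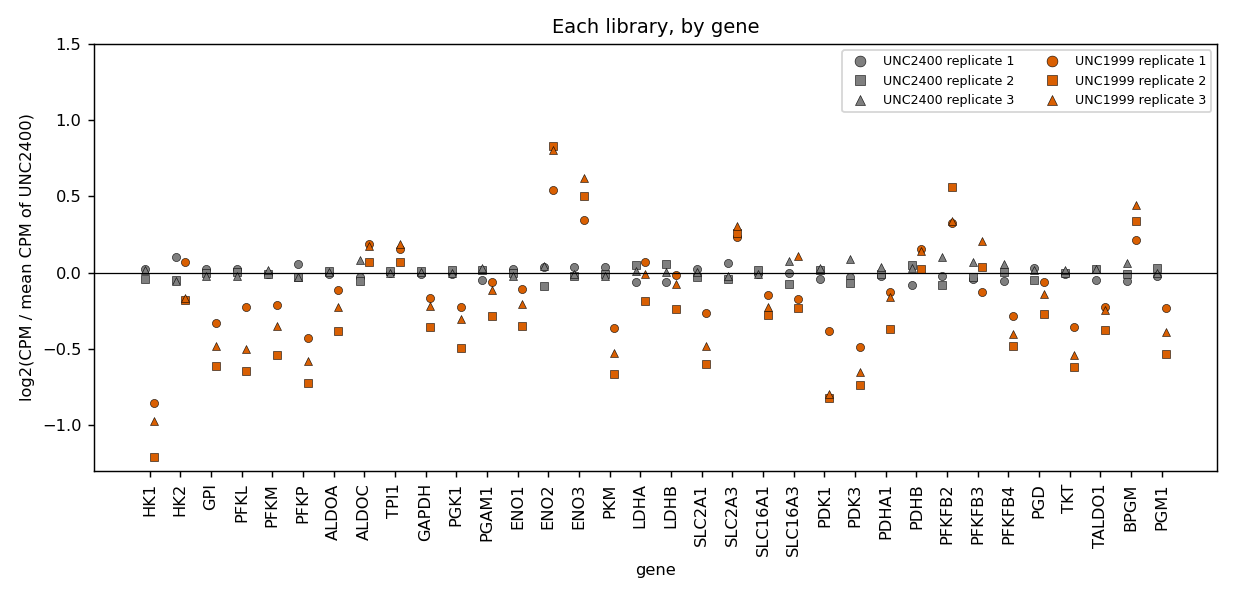
Level of each of the 34 genes in each of the 6 libraries as log2 of its CPM over the UNC2400 mean, UNC2400 in grey and UNC1999 in orange, with symbols for replicates. For HK1 the UNC1999 libraries lie between 115 and 146 CPM and the UNC2400 libraries between 257 and 269 CPM, and UNC1999 replicate 1 (circles) is the nearest to zero for most genes that changed.

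The enzymes that commit glucose and fructose-6-phosphate to glycolysis were among those that fell most. HK1, the ubiquitous hexokinase that phosphorylates glucose at the mitochondrial surface, was at 269, 257 and 267 CPM in UNC2400 replicates 1 to 3 and at 146, 115 and 134 CPM in UNC1999 replicates 1 to 3. The UNC1999 libraries were far below the others, and the gene fell by 50.3% (log2 fold change -1.01 ± 0.07 SE, adjusted p = 1.09e-08 by edgeR's quasi-likelihood test, n = 3 per group). HK2, the hexokinase known to respond to hypoxia and growth signals, was not called, with a log2 fold change of -0.09 (95% interval -0.22 to 0.05). Without UNC1999 replicate 1, however, HK2 was called lower at -0.19 (adjusted p = 0.00261). Per kb of transcript, a scale on which genes can be compared, the hexokinase pair summed to 95.3 ± 2.84 CPM per kb in UNC2400 and 57.1 ± 6.18 in UNC1999 (SD, n = 3), and the HK1 share of that sum was 77.1% and 63.9%.

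All 3 phosphofructokinase genes fell. PFKP, the platelet-type subunit of this rate-limiting enzyme, was at 189, 178 and 178 CPM in UNC2400 and 135, 110 and 122 CPM in UNC1999, and fell by 0.57 ± 0.06 (SE) on the log2 scale (adjusted p = 1.57e-06, edgeR). PFKL, the liver-type subunit, was at 156, 154 and 151 CPM against 132, 98.4 and 108 CPM, and fell by 0.45 ± 0.08 (adjusted p = 0.000112, edgeR). For both, the lowest UNC2400 library was above the highest UNC1999 library. The muscle-type subunit PFKM fell by 0.36 on the same scale (adjusted p = 0.000244, edgeR). GPI, which turns glucose-6-phosphate into fructose-6-phosphate between these steps, was at 276, 271 and 267 CPM in UNC2400 and 215, 177 and 194 CPM in UNC1999, a fall of 0.47 ± 0.06 on the log2 scale (adjusted p = 8.84e-06, edgeR). Its groups did not overlap either, with UNC1999 replicate 1 the nearest to UNC2400.

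The regulators of phosphofructokinase did not move as a block. PFKFB2, PFKFB3 and PFKFB4 encode bifunctional enzymes that make and degrade fructose-2,6-bisphosphate, the allosteric activator of phosphofructokinase. PFKFB2 rose from 31.5, 30.3 and 34.4 CPM in UNC2400 to 40.1, 47.3 and 40.6 CPM in UNC1999 (log2 fold change 0.41 ± 0.07 SE, adjusted p = 0.000112, edgeR). Each UNC1999 library was above each UNC2400 library. PFKFB4 fell by 0.39 on the log2 scale (adjusted p = 0.000597, edgeR). PFKFB3 was not called, at 0.04 on the log2 scale (95% interval -0.11 to 0.20), and with offsets for genomic span, exon length and GC content it was called higher at 0.23 (adjusted p = 0.0108). Per kb of transcript the 3 genes summed to 18.4 ± 0.813 CPM per kb in UNC2400 and 19.1 ± 1.02 in UNC1999 (SD, n = 3), of which PFKFB2 held 24.6% and 31.6% and PFKFB4 25.8% and 19.1%.

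Most abundant enzymes between aldolase and pyruvate kinase fell as well. ALDOA, the main aldolase, fell by 0.24 on the log2 scale (adjusted p = 0.00554, edgeR), while the aldolase isozyme ALDOC had a log2 fold change of 0.14 and was not called (adjusted p = 0.0757, edgeR; 0.0457 with upper-quartile scaling). In GENCODE 42.3% of the ALDOA exon bases overlap another gene on the same strand, so reads there are uncertain. GAPDH, which oxidises glyceraldehyde-3-phosphate and is widely used as a reference gene, was at 1608, 1633 and 1624 CPM in UNC2400 and 1441, 1268 and 1392 CPM in UNC1999. The UNC1999 libraries were all lower, and GAPDH fell by 15.7% (log2 fold change -0.25 ± 0.06 SE, adjusted p = 0.00267, edgeR). PGK1, the next enzyme and the first that yields ATP, was at 636, 645 and 636 CPM against 547, 454 and 516 CPM. Its groups did not overlap, with a log2 fold change of -0.34 ± 0.06 (adjusted p = 0.000286, edgeR), but with the offsets for span, length and GC the value was -0.10 and was not called (adjusted p = 0.236). GENCODE gives PGK1 a span of 219 kb and RefSeq one of 25.0 kb, and the offsets used the former. GENCODE and RefSeq also differ for other genes, among them LDHB (122.5 and 22.5 kb), PDK1 (53.3 and 168.9 kb) and PFKFB3 (109.7 and 181.7 kb). PGAM1, which moves the phosphate of phosphoglycerate, fell by only 0.15 (adjusted p = 0.0477, edgeR), a call that was lost without any 1 of the UNC2400 libraries, without UNC1999 replicate 2 or 3, and with RLE scaling (adjusted p = 0.0509). GAPDH, PGAM1 and TPI1 have 58, 13 and 4 named pseudogene copies in the table. Those copies held 0.166%, 0.294% and 0.137% as many counts as their parent gene, and how reads that match several copies were handled is not given in the sources used here.

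TPI1, the isomerase that interconverts the triose phosphates, was the only glycolytic enzyme of the 16, besides ENO2 and ENO3, that rose. It was at 1167, 1175 and 1164 CPM in UNC2400 and 1303, 1228 and 1331 CPM in UNC1999. All UNC1999 libraries were above all UNC2400 libraries, with a log2 fold change of 0.14 ± 0.06 (SE) and an adjusted p of 0.0466 (edgeR), close to the threshold. The call was lost without any 1 of the UNC2400 libraries, without UNC1999 replicate 1 or 3, with RLE scaling and without the low-count filter. With the offsets for span, length and GC the value of TPI1 was -0.09 (adjusted p = 0.323), the opposite sign, and in the authors' deposited table the adjusted p of TPI1 was 0.0933.

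The 3 enolase genes, whose products make phosphoenolpyruvate, split in direction. ENO1, the ubiquitous enolase, fell by 0.22 on the log2 scale (adjusted p = 0.01, edgeR). ENO2, the enolase first known from neurons, was at 157, 144 and 158 CPM in UNC2400 and 223, 272 and 267 CPM in UNC1999. It rose by 66.1% (log2 fold change 0.73 ± 0.07 SE, adjusted p = 2.47e-07, edgeR), and the lowest UNC1999 library, replicate 1, was well above the highest UNC2400 library. ENO3, the muscle enolase, was at 14.2, 13.6 and 13.8 CPM against 17.6, 19.7 and 21.4 CPM, a log2 fold change of 0.50 ± 0.08 (adjusted p = 7.57e-05, edgeR) with no overlap. Per kb of transcript, ENO1 still held most enolase RNA: 92.9% ± 0.306 in UNC2400 and 87.3% ± 1.97 in UNC1999, while ENO2 held 6.10% ± 0.296 and 11.2% ± 1.78 (SD, n = 3).

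PKM, the pyruvate kinase that ends the chain, was at 1596, 1544 and 1535 CPM in UNC2400 and 1211, 984 and 1078 CPM in UNC1999. It fell by 0.51 ± 0.07 (SE) on the log2 scale (adjusted p = 1.08e-05, edgeR), and the groups lay well apart. The counts are per gene, so the PKM1 and PKM2 splice forms are not separated. In UNC2400, TPI1 (949 CPM per kb of transcript), GAPDH (865), ENO1 (824) and LDHB (725) had the highest levels per length of the 34 genes, and SLC16A3 (4.51) and PFKFB2 (4.52) the lowest.

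**Figure D3:**
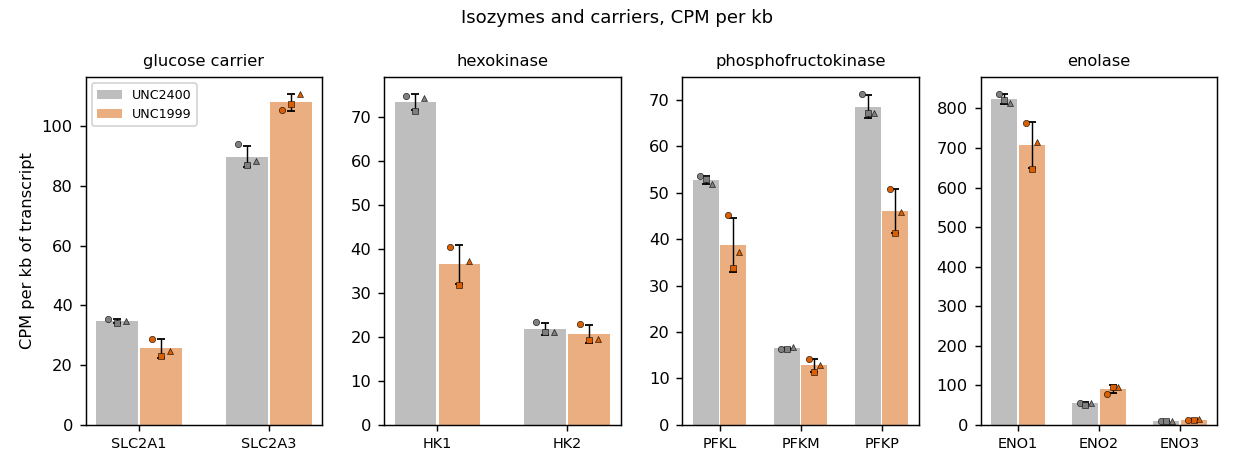
Level per kb of transcript (CPM per kb, linear axes from 0) of glucose carriers, hexokinases, phosphofructokinases and enolases; bars are means of 3 libraries, whiskers SD and symbols single libraries. HK1 drops from 73.4 to 36.5 CPM per kb beside HK2 at 21.9 and 20.6 CPM per kb, and ENO2 climbs from 54.1 to 89.9 CPM per kb beside a lower ENO1.

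The lactate dehydrogenase genes, whose products interconvert pyruvate and lactate, were not called in either direction. LDHA was at 702, 756 and 739 CPM in UNC2400 and 768, 644 and 728 CPM in UNC1999. The groups overlapped, with the highest and the lowest value both in UNC1999, and the 95% interval of the log2 fold change ran from -0.18 to 0.10. With the offsets for span, length and GC, LDHA was called lower at -0.22 (adjusted p = 0.0283). For LDHB the interval was -0.25 to 0.03, and without UNC1999 replicate 1 it was called lower at -0.18 (adjusted p = 0.0207). Another gene overlaps 33.4% of the LDHB exon bases on the same strand.

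The carriers at the cell membrane changed in opposite directions. SLC2A1 (GLUT1), the glucose carrier of most cells, was at 130, 125 and 128 CPM in UNC2400 and 106, 84.1 and 91.1 CPM in UNC1999, and fell by 0.44 ± 0.07 (SE) on the log2 scale (adjusted p = 3.51e-05, edgeR). SLC2A3 (GLUT3), a carrier of high glucose affinity, was at 368, 341 and 346 CPM against 412, 421 and 434 CPM, a log2 fold change of 0.27 ± 0.05 (adjusted p = 0.000445, edgeR). Neither gene overlapped between the groups. SLC2A3 was no longer called with the offsets for span, length and GC, at 0.10 (adjusted p = 0.159), and its near-copy SLC2A14 was at 17.9 CPM in UNC2400 and 17.1 CPM in UNC1999. Per kb of transcript the pair summed to 124 ± 4.23 and 133 ± 2.68 CPM per kb, and SLC2A3 held 72.1% and 80.9% of it (n = 3). Of the proton-linked lactate and pyruvate carriers, SLC16A1 (MCT1) fell by 0.22 on the log2 scale (adjusted p = 0.00297, edgeR) and SLC16A3 (MCT4), at 21.8 CPM in UNC2400, was not called (-0.09, 95% interval -0.27 to 0.09), but was called lower at -0.22 without UNC1999 replicate 3 (adjusted p = 0.0334).

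At the pyruvate dehydrogenase step, both kinases among the 34 that switch off the enzyme fell. PDK1 was at 80.2, 83.6 and 84.3 CPM in UNC2400 and 63.3, 46.8 and 47.6 CPM in UNC1999, a fall of 0.65 ± 0.08 (SE) on the log2 scale (adjusted p = 6.89e-06, edgeR). PDK3 was at 55.6, 54.1 and 60.4 CPM against 40.5, 34 and 36 CPM, a fall of 0.62 ± 0.07 (adjusted p = 9.49e-07, edgeR). In both kinases UNC1999 replicate 1 was the highest UNC1999 library and still below all UNC2400 libraries. Of the E1 subunits of the dehydrogenase itself, PDHA1 fell by 0.22 (adjusted p = 0.00659, edgeR). Another gene overlaps 21.3% of the PDHA1 exon bases on the other strand. PDHB was at 0.11 (95% interval -0.01 to 0.22). Without UNC1999 replicate 2 PDHB was called higher at 0.14 (adjusted p = 0.0473), and with the offsets it was called in the opposite direction at -0.19 (adjusted p = 0.0236).

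All 3 pentose phosphate genes among the 34 fell. TKT, the transketolase that links the sugars of the branch back to glycolysis, was at 744, 748 and 757 CPM in UNC2400 and 585, 487 and 514 CPM in UNC1999. The groups were far apart, and TKT fell by 29.5% (log2 fold change -0.50 ± 0.06 SE, adjusted p = 5.80e-06, edgeR). Its partner in the non-oxidative arm, the transaldolase TALDO1, fell by 0.28 on the log2 scale (adjusted p = 0.000315, edgeR). PGD, which makes NADPH in the oxidative arm, fell by 0.16 (adjusted p = 0.0308, edgeR), and that call was lost without UNC2400 replicate 1, UNC2400 replicate 3, UNC1999 replicate 2 or UNC1999 replicate 3.

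The side branches moved apart. BPGM, which makes 2,3-bisphosphoglycerate, was at 22.9, 23.6 and 24.9 CPM in UNC2400 and 27.6, 30.1 and 32.3 CPM in UNC1999. All UNC1999 libraries were higher (log2 fold change 0.33 ± 0.07 SE, adjusted p = 0.000697, edgeR). PGM1, which joins glycogen and glucose-6-phosphate, fell by 0.38 (adjusted p = 9.11e-05, edgeR).

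Ratios between isozymes within a library need no scaling factor and were compared for 12 pairs with an exact permutation test (two-sided), whose smallest possible p with 3 libraries a group is 0.1. For 9 of the 12 pairs the groups did not overlap, each with p = 0.1 and an adjusted p of 0.133 (exact permutation, Benjamini-Hochberg over 12). No pair thus passed 0.05. Of all single genes tested, 30.9% had UNC1999 above and 29.7% below without overlap. Other gene pairs were not compared, so the 9 of 12 has no baseline. The log2 ratio of HK2 to HK1 was -0.996, -1.08 and -1.14 in UNC2400 and -0.14, -0.04 and -0.26 in UNC1999, a difference of 0.93. Counts of HK2 thus came close to those of HK1 in UNC1999 replicate 2. The ratio of ENO2 to ENO1 differed by 0.95, ENO3 to ENO1 by 0.71, SLC2A3 to SLC2A1 by 0.71 and PFKFB2 to PFKFB4 by 0.80, all higher in UNC1999. LDHB to LDHA differed by only -0.07, with ratios of 0.60 to 0.62 in UNC2400 and 0.52 to 0.55 in UNC1999. PFKM to PFKL, SLC16A3 to SLC16A1 and PDK3 to PDK1 overlapped between the groups, at differences of 0.09, 0.12 and 0.04.

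**Figure D4:**
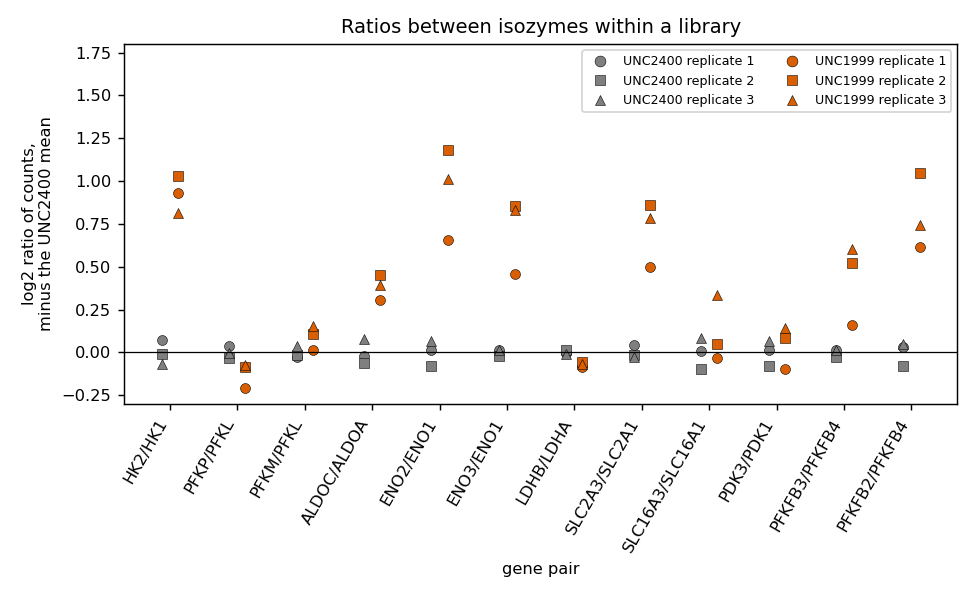
Log2 ratio of counts of 2 isozymes in each library, minus the mean of the UNC2400 libraries, for 12 pairs (UNC2400 grey, UNC1999 orange, symbols for replicates). For HK2/HK1, ENO2/ENO1 and SLC2A3/SLC2A1 the UNC1999 points stand above the UNC2400 points, by a mean of 0.93, 0.95 and 0.71, while PDK3/PDK1 is mixed.

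Fold changes across all genes went with genomic span, the distance from the first to the last base of a gene. The median log2 fold change of all genes tested was 0.22 for spans up to 5 kb and -0.38 for spans over 160 kb. Of the 34 genes, 21 span at least 20 kb, of which 15 fell and 2 rose, with a median of -0.38. Over all 9630 tested genes of that span, 37.8% fell and 20% rose, with a median of -0.09. The other 13 are shorter, of which 6 fell and 4 rose, with a median of -0.04. Over all 5889 tested genes of under 20 kb, 11.8% fell and 40.4% rose, with a median of 0.17. HK1 spans 132 kb, and with the offsets for span, length and GC its log2 fold change was -0.82 (adjusted p = 4.71e-09). GAPDH (4.45 kb), ALDOA (6.29 kb) and PGAM1 (7.28 kb) are short genes that fell, at offset values of -0.45, -0.47 and -0.40, further from 0 than without offsets. ENO2 (9.95 kb) was at 0.54 with offsets (adjusted p = 4.60e-07). With the offsets, 22 of the 34 genes were lower and 5 higher, with a median of -0.33. In that fit 24.6% of all genes tested were lower and 23.3% higher, with a median of 0.00.

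**Figure D5:**
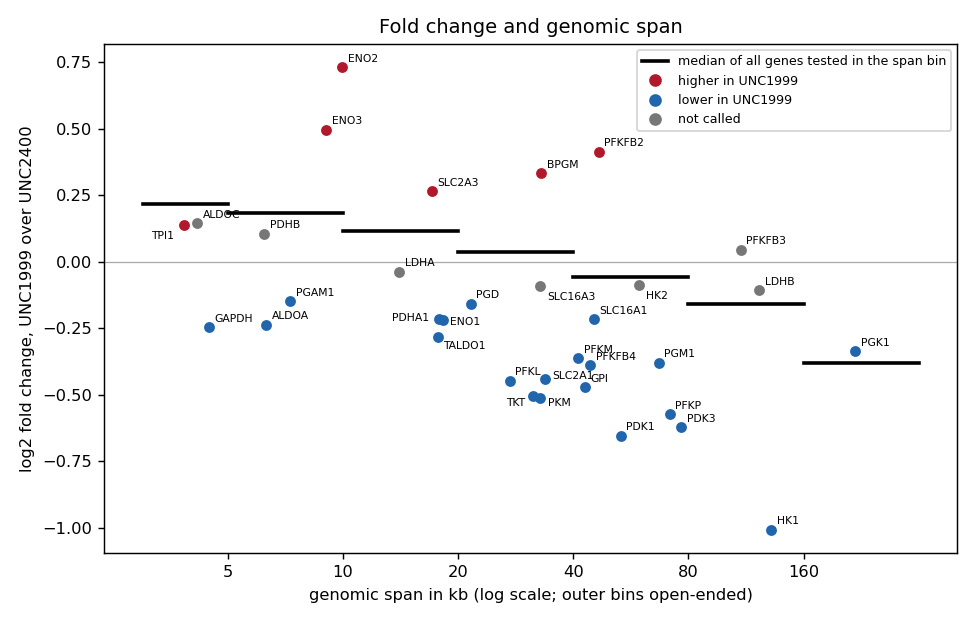
Log2 fold change of each of the 34 genes against its genomic span in kb (log axis), with black lines for the median of all genes tested in each span bin; red is higher, blue lower and grey not called. The bin medians run from 0.22 to -0.38; HK1 lies below its bin line, and ENO2, ENO3, SLC2A3, BPGM and PFKFB2 lie above theirs.

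Further genes of the same pathways, from lists that do not include the 34, were read in the same fit. Of 32 other glycolysis and pentose phosphate genes, 22 were expressed enough to be tested, and 10 fell and 3 rose (45.5% and 13.6%). Over all genes tested, 25.9% fell and 26.8% rose. PGM2L1 (-0.48), PGM3 (-0.33) and ADPGK (-0.30), an ADP-dependent glucokinase, were among those that fell. So was RPE (-0.29, adjusted p = 0.000235, edgeR), of the non-oxidative arm of the pentose phosphate pathway. The 3 that rose, named after their values were seen, were PGLS (0.33, adjusted p = 0.000381) and RPIA (0.28, adjusted p = 0.00328), enzymes of the oxidative and the non-oxidative arm of the pentose phosphate pathway, and C12orf5 (TIGAR; 0.26, adjusted p = 0.00271), a phosphatase of fructose-2,6-bisphosphate (edgeR). Of 21 other sugar and monocarboxylate carriers tested, 10 fell and 4 rose (47.6% and 19.0%). SLC16A7 (MCT2) and SLC2A13 (a myo-inositol carrier) fell at -0.58 and -0.52. SLC2A13 was not called with the offsets for span, length and GC, at -0.10 (adjusted p = 0.324, edgeR). SLC16A14 and SLC16A13, at 3.88 and 2.79 CPM in UNC2400, rose at 0.95 and 0.87.

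Around pyruvate, 4 of 11 tested genes fell and 2 rose (36.4% and 18.2%). Over all genes tested 25.9% fell and 26.8% rose, and of those of at least 10 CPM 33.9% and 31.1%. PC, the pyruvate carboxylase that feeds oxaloacetate to the citrate cycle, was at 25.5, 24.2 and 24.0 CPM in UNC2400 and 15.1, 9.92 and 11.2 CPM in UNC1999 (log2 fold change -1.02 ± 0.11 SE, adjusted p = 1.06e-06, edgeR). All UNC1999 libraries were lower, replicate 1 the least so. The pyruvate dehydrogenase phosphatase regulatory subunit PDPR (-0.44) and citrate synthase CS (-0.28) fell, and PDP1 (0.36), a catalytic subunit of that phosphatase, rose. Of 11 tested gluconeogenesis and glycogen genes 6 fell and 1 rose (54.5% and 9.09%). Those that fell included the glycogen phosphorylases PYGM (-0.96) and PYGB (-0.40) and UGP2 (-0.41), which makes UDP-glucose. Of the 6 genes of the serine branch that leaves glycolysis at 3-phosphoglycerate, 4 fell and 1 rose (66.7% and 16.7%). PHGDH (-0.52), the entry enzyme, PSAT1 (-0.42) and SHMT2 (-0.33) fell. The mitochondrial folate enzyme MTHFD2 (0.27) rose, though not with the offsets for span, length and GC, at 0.12 (adjusted p = 0.0861, edgeR).

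The factors known to act on glycolytic genes gave a mixed list. Of 22 genes of the HIF pathway and hypoxia response outside glycolysis, 6 rose and 3 fell, and 13 did not pass the test. The shares were 27.3% and 13.6%, against 26.8% and 25.9% of all genes tested. BNIP3 (-0.26), BNIP3L (-0.18) and EPAS1 (-0.45) fell, and HIF1A, VEGFA and CA9 were among those not called. The peptide hormone gene ADM was at 10.0, 11.3 and 11.6 CPM in UNC2400 and 35.7, 43.7 and 45.0 CPM in UNC1999 (log2 fold change 1.92 ± 0.09 SE, adjusted p = 2.62e-10, edgeR), far above in every UNC1999 library. EGLN1 (0.74), the main prolyl hydroxylase that marks HIF subunits for decay, VHL (0.31), the ubiquitin ligase subunit that then binds them, and NDRG1 (0.89) also rose, VHL not with the offsets, at 0.07 (adjusted p = 0.293). Of 10 MYC-network and sugar-sensing genes, 4 rose and 4 fell (40% each, against 26.8% and 25.9% of all genes tested). TXNIP, an arrestin-type protein known to lower glucose uptake and to be induced by the glucose-sensing factors MLXIP and MLXIPL, was at 15.5, 14.9 and 14.2 CPM in UNC2400 and 57.3, 68.2 and 73.8 CPM in UNC1999 (log2 fold change 2.16 ± 0.08 SE, adjusted p = 3.41e-11, edgeR). Its relative ARRDC4 was at 11.9, 13.1 and 12.8 CPM against 28.0, 37.4 and 36.2 CPM (1.42 ± 0.10 SE, adjusted p = 8.82e-09, edgeR), and in both genes every UNC1999 library was above every UNC2400 library. Of the glucose-sensing factors, MLXIP fell by 0.15 (adjusted p = 0.0162, edgeR) and MLXIPL was not called (-0.28, adjusted p = 0.166, edgeR). MYC had a log2 fold change of 0.23 (adjusted p = 0.00114, edgeR) and -0.02 with the offsets (adjusted p = 0.729). MXD4, which competes with MYC for its partner MAX, fell by 0.33. MAX itself (-0.16, adjusted p = 0.0411, edgeR) and MYCN (-0.15, adjusted p = 0.0290, edgeR) also fell.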

How the data were processed

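RNA-seq libraries of H9 cells given UNC1999 or UNC2400 (3 each) were grouped by the sample titles. Whether the replicates are separate cultures is not in the labels, so the p-values measure only how these libraries vary, which may be technical variation. The authors deposited whole-number counts per gene name, without normalization and marked as having duplicates removed; of what is not stated. Per the submitters' processing notes, Trim Galore 0.4.0, TopHat2 2.0.13, featureCounts, Subread 1.5.0 and hg19 were used, with no roles stated. The strand setting of the counting and the treatment of reads matching several places are not given in the sources at hand. From the authors' deposited table of log2 fold changes and p-values the 34 genes were read. All 34 had the same sign there as in the fit described next, as had 97.9% of the 17596 genes in both. Of the 34, 5 were higher and 21 lower there at an adjusted p-value under 0.05. The share of all genes called there was not counted. Both come from the same libraries, so the match is not independent.

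Counts were tested in R 4.3.3 by edgeR 4.0.16: its quasi-likelihood F test (two-sided) with group as the only term, TMM factors and the default low-count filter, which kept 17596 of 53712 names. P-values were adjusted by Benjamini-Hochberg over all genes tested (threshold 0.05), and log2 fold changes are UNC1999 minus UNC2400. Intervals are 95%. The fit was tested on simulated counts. Tried beside it were 2 other scalings (RLE, upper quartile), 2 other tools (DESeq2 1.42.0, and limma-voom from limma 3.58.1), no low-count filter, a mean of at least 1 CPM, a replicate block, offsets for span, exon length and GC content, and each library left out. Ratios used counts plus 0.5. Span, exon length, GC content and the principal transcripts behind levels per kb came from GENCODE release 29 by name, found for 88.2% of tested genes and all 34; its build is not that of the counts. Promoter sequences are from RefSeq by symbol.

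The 34 genes and all lists were chosen with earlier results of these data known. Values in every library are given for called genes with the largest log2 fold change, up to 8 in each direction, and for GAPDH, PKM, LDHA, PGK1, SLC2A1 and TKT. From each other list up to 4 tested genes with the smallest p are named. Some genes that this rule takes are not reported here. The marker genes, SLC2A14, PGLS, RPIA, C12orf5, the levels of at least 10 CPM and the per-library values of genes outside the 34 were added after the data were seen. So were BNIP3, BNIP3L, EPAS1, HIF1A, VEGFA, CA9, MLXIP, MLXIPL, MYCN, MAX and RPE.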

Additional observations from a re-analysis of the deposited data

How the results depend on the processing

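Of the 27 called genes, 22 kept call and direction under all 15 alternatives (18 lower, 4 higher), and TPI1, PGK1, PGAM1, SLC2A3 and PGD did not. The 34 genes held 5 to 7 higher and 19 to 23 lower calls. Over all genes, leaving out libraries in turn gave 3642 to 4925 higher and 3951 to 5151 lower calls. Whether replicate numbers pair the libraries was not settled. Deviations from the group means correlated at 0.02, 0.08 and 0.12 between libraries of the same number. Replicates 2 and 3 each correlated best with the same number, but UNC2400 replicate 1 with UNC1999 replicate 2 (0.06). Replicate 2 had the most genes detected in both groups, 29385 in UNC2400 and 29527 in UNC1999. In UNC2400 replicate 2 was also the deepest library. With the replicate block, 6 were higher and 21 lower, as without it, and 4867 and 4695 over all genes against 4714 and 4554. The sign turned with span, length and GC offsets, and with these plus the block, for ALDOC (-0.0912, -0.0959), TPI1 (-0.0921, -0.0952), SLC16A3 (0.0365, 0.0284), PDHB (-0.186, -0.190) and MYC (-0.0236, -0.0244); the cause was not tested. Leaving out libraries in turn gave -0.115 to 0.0225 for LDHA (the highest without UNC1999 replicate 2), -0.0594 to 0.103 for PFKFB3 (the lowest without UNC1999 replicate 3) and -0.00656 to 0.114 for the PDK3/PDK1 ratio (the lowest without UNC1999 replicate 3). With 3 libraries per group, intervals of about 0.1 to 0.2 either side limit what the genes not called can show.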
